A study of Mus musculus with 2 samples.

Results

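The longest genes of the mouse genome were examined in chromatin immunoprecipitation sequencing (ChIP-seq) of Msl1 and Nsl1. Genes were taken by length alone. A protein-coding gene on an autosome was counted as long when its longest protein-coding transcript spanned more than 200 kb of the mm9 genome build, and 884 of 21410 genes met this rule. Their lengths ran from 200.03 to 4434.9 kb with a median of 318.14 kb, and 455 of the 884 (51.5%) lay on the plus strand. Only 13 of them overlapped another gene of the set.

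Both libraries were made from wild type mouse embryonic stem cells (mESCs) of the E14 line, which carry the 129P2/OlaHsd background, at passage 26. Chromatin was precipitated with an antibody against Msl1 in the first library and against Nsl1 in the second. The cells carry no mutation or treatment that the labels name, and each antibody is represented by 1 library, so the differences below have no replicate check and no p-value is given. The library kits were not the same (NEXTFlex for Msl1 and NEBNext for Nsl1), and kit and antibody cannot be told apart.

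Msl1 is the scaffold subunit of the MSL complex and Nsl1 (Kansl1) that of the NSL complex, and both complexes carry the acetyltransferase Mof, which acetylates histone H4 at lysine 16. In flies the MSL complex spreads over the bodies of X-linked genes, while the NSL complex sits at the promoters of housekeeping genes. Very long genes owe their length to introns. Many of them code for synaptic adhesion molecules, ion channels and axon guidance receptors that are used in neurons, a smaller number for proteins that nearly every cell needs, and several lie in common fragile sites, which break when replication is slowed.

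In all, 23888517 aligned Msl1 reads (50 bases long) and 26084098 Nsl1 reads (36 bases long) entered. Keeping 1 read per position and strand left 19483142 (81.7%) and 24883001 (95.4%) reads on the nuclear chromosomes. The autosomes carried 7.92 Msl1 and 10.1 Nsl1 reads per kb. A transcription start site (TSS) was scored by its reads within 500 bases on either side, divided by the local level, which is the reads per kb between 5 and 50 kb away on both sides in the same library. On this scale the pluripotency gene Pou5f1 stood at 5.20 in the Msl1 library and 1.32 in the Nsl1 library, and Klf4 at 4.85 and 1.14. The 8 pluripotency genes (1.06 to 5.20 for Msl1, 1.14 to 2.35 for Nsl1) did not separate from 5 genes of fibroblasts, glia and neurons (0.947 to 4.40 and 0.916 to 2.76). TSS reads of these genes are therefore no check on the cell type. Intervals given in parentheses are 95% intervals, exact except for the summed ratios of Msl1 over Nsl1 relative to the rest of the gene, and cover counting error only.

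The 150 bases before the TSS are printed for 7 long genes, chosen because their reads span the patterns described below. They are read in the direction of the gene on mm9, and capitals mark matches, on either strand, to the motifs searched: the GC box GGGCGG, the Ets core CCGGAAG, the Nrf1 motif GCATGCGC, the CCAAT box, the TATA box TATAAA and the YY1 core AAGATGGC. The Rims2 stretch (chr15:39029728-39029877, plus strand) belongs to one of the highest Msl1 ratios. Those of Mll3 (chr5:25004602-25004751, minus strand) and Fndc3b (chr3:27609362-27609511, minus strand) belong to TSSs with many Msl1 and few Nsl1 reads. The Atg7 (chr6:114592999-114593148, plus strand), Fam172a (chr13:77847801-77847950, plus strand) and Vps13b (chr15:35301151-35301300, plus strand) stretches belong to TSSs with high Nsl1. The Nrxn3 stretch (chr12:90032798-90032947, plus strand) lies before the annotated start of its longest coding transcript, a TSS that was low in both libraries. Other starts of Nrxn3 are not given here.
Rims2: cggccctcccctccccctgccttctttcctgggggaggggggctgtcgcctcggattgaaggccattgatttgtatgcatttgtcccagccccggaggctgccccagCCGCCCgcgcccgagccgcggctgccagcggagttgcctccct
Mll3: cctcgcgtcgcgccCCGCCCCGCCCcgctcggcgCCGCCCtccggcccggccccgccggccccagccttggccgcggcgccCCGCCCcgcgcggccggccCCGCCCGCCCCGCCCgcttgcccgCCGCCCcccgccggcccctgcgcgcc
Fndc3b: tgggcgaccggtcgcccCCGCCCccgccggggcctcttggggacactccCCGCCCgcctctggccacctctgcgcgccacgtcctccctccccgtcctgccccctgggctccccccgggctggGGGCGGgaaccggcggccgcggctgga
Atg7: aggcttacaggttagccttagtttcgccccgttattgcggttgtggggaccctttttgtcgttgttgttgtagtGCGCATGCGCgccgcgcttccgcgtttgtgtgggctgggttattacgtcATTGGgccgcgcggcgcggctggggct
Fam172a: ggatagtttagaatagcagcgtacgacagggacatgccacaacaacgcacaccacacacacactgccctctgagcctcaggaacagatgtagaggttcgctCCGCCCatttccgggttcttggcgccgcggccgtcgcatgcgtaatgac
Vps13b: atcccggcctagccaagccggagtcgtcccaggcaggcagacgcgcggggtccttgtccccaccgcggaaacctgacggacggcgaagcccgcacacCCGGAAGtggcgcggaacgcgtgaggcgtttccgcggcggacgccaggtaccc
Nrxn3: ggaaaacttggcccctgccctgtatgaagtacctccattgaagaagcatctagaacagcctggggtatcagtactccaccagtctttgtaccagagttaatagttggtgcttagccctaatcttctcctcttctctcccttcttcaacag
The Mll3 stretch holds 8 matches to the GC box and 32 CpG dinucleotides. The Atg7 stretch holds a pair of Nrf1 matches, which overlap each other because the motif is read on both strands, and a CCAAT box. Vps13b holds an Ets core and no GC box, and Nrxn3 holds none of the motifs and no CpG.

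The first comparison asked how often long genes carried Msl1 or Nsl1 at the TSS. A TSS was called when it held at least 10 reads and at least 2 times the local level. Msl1 was called at 605 of the 884 long genes (68.4%), against 44.8% of all autosomal protein-coding genes, and Nsl1 at 343 (38.8%), against 40.5%. The long genes thus lay above the background for Msl1 and close to it for Nsl1. The side of the background was not stable for Nsl1: with the highest of all annotated TSSs of each gene it was called at 47.2% of the long genes and 43.7% of all genes, and at a ratio of at least 3 at 15.5% and 23.6%. Both proteins were called at 292 long genes (33.0%, background 29.8%), Msl1 without Nsl1 at 313 (35.4%, background 15%) and Nsl1 without Msl1 at 51 (5.77%, background 10.7%). The remaining 228 genes (25.8%) were called in neither library. Counts at the TSS were small, with a median of 21 Msl1 and 18 Nsl1 reads, and 126 and 97 long genes held fewer than 10 reads. No read was found at 10 TSSs in the Msl1 library and at 8 in the Nsl1 library, which allows up to 3 reads at each.

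The shares changed with gene length in different ways. Msl1 calls went from 34.1% of genes under 20 kb through 54.8% (20 to 50 kb), 60.8% (50 to 100 kb) and 65.5% (100 to 200 kb) to the 68.4% of the long genes. Nsl1 calls went from 33.9% through 51.0%, 52.3% and 45.2% down to 38.8%. Msl1 calls therefore became more common in every class of longer genes, while Nsl1 calls were most common at 50 to 100 kb. Above 20 kb the Msl1 rise did not come with more reads at the TSS. From 20 to 50 kb up to the long genes, median TSS reads were 24, 24, 24 and 21 for Msl1 and 26, 25, 21 and 18 for Nsl1. The median local level of Msl1 fell through 10.8, 10.1, 9.22 and 7.58 reads per kb. Within the long genes the Nsl1 share hardly moved (38.6% at 200 to 300 kb and 39.1% above 1000 kb), and Msl1 was called at 68.7% of the 402 genes of 200 to 300 kb, 65.1% of 304 at 300 to 500 kb, 72.0% of 132 at 500 to 1000 kb and 78.3% of the 46 over 1000 kb. Across single long genes the TSS ratio had almost no rank correlation with length (Spearman's rho 0.0383 for Msl1 and -0.0109 for Nsl1, n = 884 genes of the same libraries). Base composition moved with these shares. In 100-base tiles at least 10 kb from any TSS, the level at 55% GC was 1.68 times the mean for Msl1 and 1.59 times for Nsl1, and at 63% GC 0.982 and 0.559 times. The curve had too few tiles above 63% GC, so the level at 63% was used there. After dividing out this curve the Msl1 shares were 28.0, 43.9, 49.5, 53.2 and 55.0% and the Nsl1 shares 35.1, 55.6, 58.9, 53.0 and 42.3% from the shortest to the longest class. On that scale the 46 genes over 1000 kb stood at 45.7% for Msl1 and 19.6% for Nsl1, so the even Nsl1 share within the long genes depended on leaving GC content unadjusted.

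**Figure D1:**
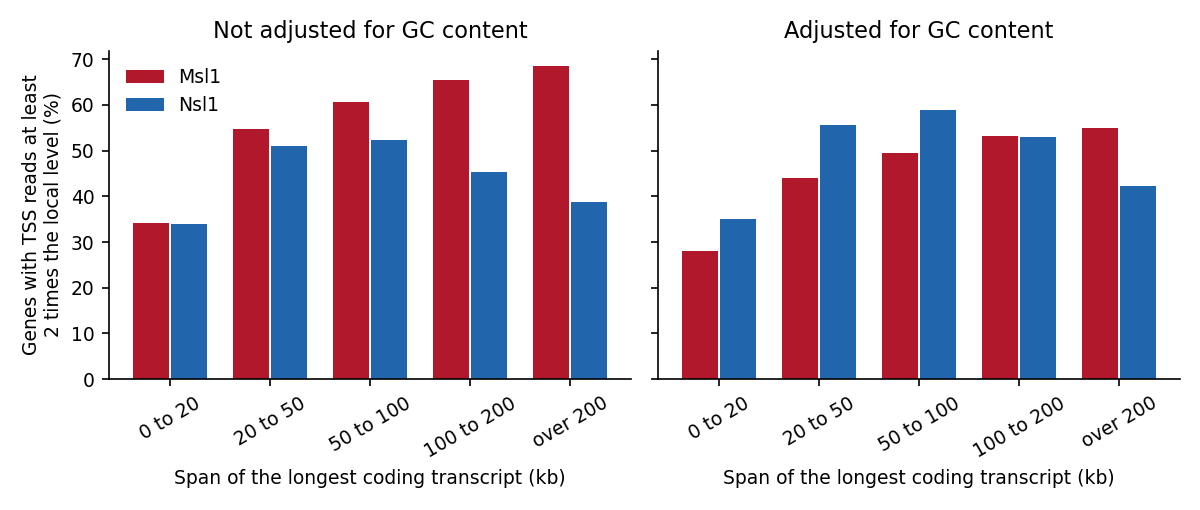
Percent of genes with a called TSS (at least 10 reads and at least 2 times the local level) in 5 classes of gene length, for the Msl1 and the Nsl1 library, without and with adjustment for GC content. Msl1 climbs to 68.4% in the genes over 200 kb, while Nsl1 peaks at 52.3% in genes of 50 to 100 kb and stands at 38.8% in the longest class.

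The limit of 200 kb cuts a continuous range of gene lengths. The genes just outside it were Bckdhb (199.09 kb, 24 Msl1 and 43 Nsl1 reads), Clec16a (199.51 kb, 38 and 44 reads) and Morc1 (199.67 kb, 15 and 16 reads). Just inside were Pcbp3 (200.03 kb, 35 and 30 reads), Plcxd3 (200.05 kb, 15 and 9 reads) and Gm16039 (200.18 kb, 26 and 50 reads). The 123 genes of 180 to 200 kb had Msl1 calls at 68.3% and Nsl1 calls at 45.5%, and the 110 genes of 200 to 220 kb at 62.7% and 39.1%.

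The shape of the signal around the TSS also differed between the libraries. In 100-base bins summed over the long genes, Msl1 reads peaked at 4.02 times the local level 200 to 300 bases after the TSS and kept more than 50% of the height above a level of 1 from 100 to 1000 bases. A dip to 1.88 in the last 100 bases before the TSS separated this peak from a smaller one upstream. Between 1 and 2 kb the Msl1 level was 1.87 downstream and 1.34 upstream, so the signal leaned into the gene. Nsl1 reads formed a single peak of 2.67 in the last 100 bases before the TSS, with more than 50% of its height above a level of 1 kept from 400 bases upstream to 300 bases downstream, and were even on both sides at 1 to 2 kb (1.19 upstream and 1.20 downstream). In genes of 20 to 100 kb the peaks lay in the same bins but in the opposite order of height, with 3.70 for Msl1 and 4.21 for Nsl1. All heights are relative to the local level, which was lower in the long genes.

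**Figure D2:**
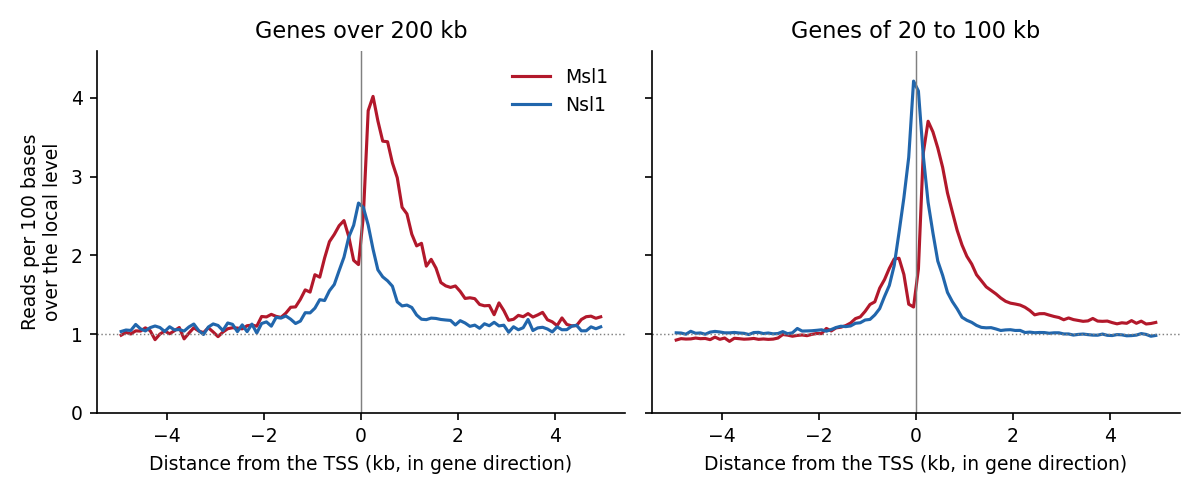
Reads per 100 bases over the local level against the distance from the TSS in kb, summed over the 884 genes over 200 kb (left) and over 6969 genes of 20 to 100 kb (right). In the long genes the Msl1 maximum of 4.02 lies after the TSS and exceeds the Nsl1 maximum of 2.67, while in the shorter genes Nsl1 is the taller peak at 4.21.

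Single long genes spread widely. The Msl1 ratio had a median of 2.74 and quartiles of 1.77 and 3.83 with a maximum of 8.14, and the Nsl1 ratio a median of 1.72, quartiles of 1.23 and 2.45 and a maximum of 23.1. The top of the Msl1 ranking was narrow, and that of Nsl1 held a few genes far above the rest. Across the 884 genes the ratios of the libraries had a Pearson correlation of 0.418 on the log2 scale and a Spearman correlation of 0.366. A small constant was added before taking log2, so that genes without reads could enter. These values describe genes that share base composition and libraries.

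The highest Msl1 ratios belonged to Camk2d, Rims2, Vps13b, Hs6st3 and Fut8. Camk2d, a calcium/calmodulin-dependent kinase, held 52 Msl1 reads, 8.14 times the local level (6.01 to 10.8), and 24 Nsl1 reads, 2.58 times (1.65 to 3.87). Rims2, a scaffold of the presynaptic active zone, held 46 Msl1 reads at 8.07 times (5.83 to 10.9) and 18 Nsl1 reads at 2.42 times (1.42 to 3.85). Both neighbours in rank have wide, overlapping intervals, so their order is not resolved. Hs6st3, a heparan sulfate sulfotransferase, held 49 Msl1 reads at 7.51 times and 11 Nsl1 reads at 1.11 times. Fut8, which adds core fucose to glycoproteins, held 56 Msl1 reads at 7.40 times and 21 Nsl1 reads at 2.07 times.

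Vps13b was high in both libraries. This gene for a lipid transfer protein of the Golgi apparatus held 36 Msl1 reads at 7.79 times the local level (5.38 to 10.96) and 90 Nsl1 reads at 11.6 times (9.17 to 14.4). Its Nsl1 ratio is far above the upper quartile of the long genes.

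The highest Nsl1 ratios belonged to Atg7, Fam172a, Xrcc4, Nsmce2 and 2610528E23Rik. Atg7, the E1-like enzyme of autophagy, held 158 Nsl1 reads at 23.1 times the local level (19.3 to 27.6) and 23 Msl1 reads at 4.36 times (2.74 to 6.62). Its interval lies above those of all other long genes named here, but its local level was low. Inside the gene, reads per kb were 28.6 times those upstream for Nsl1 and 32.3 times for Msl1. The local level was 6.83 Nsl1 reads per kb beside 13.0 in the rest of the gene, and 5.28 beside 9.93 for Msl1. The few reads upstream lower the local level and so raise both ratios of Atg7. Fam172a held 110 Nsl1 reads at 14.5 times and 30 Msl1 reads at 5.10 times. Xrcc4, a partner of DNA ligase IV in the joining of broken ends, held 104 Nsl1 reads at 14.1 times and 37 Msl1 reads at 5.48 times. The values of Fam172a (11.7 to 17.7) and Xrcc4 (11.4 to 17.4) do not differ beyond counting error. Nsmce2, a SUMO ligase of the Smc5/6 complex, held 146 Nsl1 reads at 13.4 times and 38 Msl1 reads at 3.10 times, and 2610528E23Rik held 121 Nsl1 reads at 12.3 times and 28 Msl1 reads at 3.32 times. All of these Nsl1 leaders were called for Msl1 as well.

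**Figure D3:**
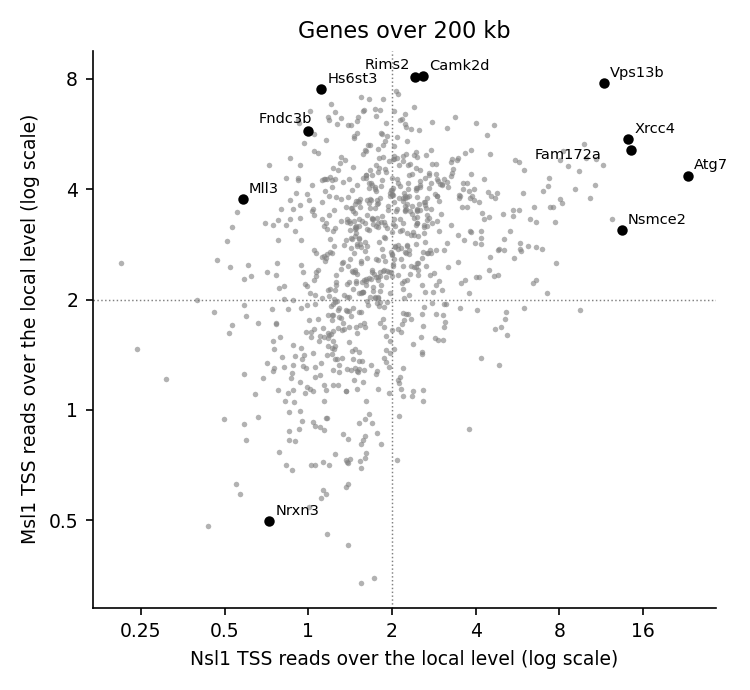
Msl1 reads over the local level against Nsl1 reads over the local level at the TSS, both on log axes, one point per long gene with at least 1 read in each library (873 of 884), with dotted lines at 2. The Msl1 values end at 8.14, while the Nsl1 values of Atg7, Fam172a, Xrcc4 and Nsmce2 run from 13.4 to 23.1, apart from the main cloud of points.

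Reads of the libraries were next compared directly, as Msl1 over Nsl1 reads at the TSS per distinct autosomal read. The 305 long genes where the libraries summed to 50 TSS reads or more had a median of 1.44, against 1.00 over all 9166 such genes. The Msl1 share was at least 2 times the Nsl1 share in 100 of them (32.8%, background 14.9%), and the reverse held in 31 (10.2%, background 15.5%). Long genes thus lay toward Msl1. The farthest were Mll3, a histone H3 lysine 4 methyltransferase, with 47 Msl1 and 7 Nsl1 reads, a ratio of 8.58 (3.86 to 22.5), Fndc3b with 67 and 13 reads, a ratio of 6.59 (3.60 to 13.0), and Samd4, an RNA-binding repressor of translation, with 46 and 10 reads, a ratio of 5.88 (2.93 to 13.1). Their intervals overlap one another and all lie above 2, but cover counting error only. GC content at these TSSs was 77.2, 75.5 and 67.9%, above the 63% at which the GC curve ends. At 63% the Nsl1 level away from TSSs was already below that of Msl1, and these single-gene ratios were not adjusted. Farthest the other way were B930007M17Rik with 10 Msl1 and 77 Nsl1 reads, Atg7 with 23 and 158, and Nek11, a kinase of the DNA damage response, with 14 and 61. Their Nsl1 over Msl1 ratios were 6.02, 5.37 and 3.41. GC content moves with this comparison: summed over the long genes, and relative to the rest of the gene, Msl1 over Nsl1 at the TSS was 1.37 (1.35 to 1.40) and became 1.15 (1.13 to 1.17) after the adjustment.

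The groups called in one, both or neither library differed in promoter sequence, which the choice of the genes by length did not use. CpG island-like TSSs, with at least 50% GC and an observed over expected CpG of at least 0.6 within 500 bases, were found at 548 long genes (62.0%) and at 45.9% of all genes. Their share was 79.2% where Msl1 alone was called, 74.3% where both were, 49.0% where Nsl1 alone was and 25.4% where neither was. Median GC was 64.5, 61.0, 56.0 and 47.6% in the same order. The Msl1 ratio had a rank correlation of 0.491 with TSS GC content over the long genes and the Nsl1 ratio one of 0.102. These groups and ratios were not adjusted for GC content, and neither are the groups used for motifs below. Away from TSSs, the level at 63% GC was 0.982 times the mean for Msl1 and 0.559 times for Nsl1. How far this sorted the groups by GC content was not tested.

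Motif matches in the 250 bases before the TSS followed different orders. A GC box was present at 52.7% of the long genes and 41.3% of all genes, and within the long genes at 65.5% with Msl1 alone, 60.3% with both, 43.1% with Nsl1 alone and 27.6% with neither. The Ets core was present at 5.09% of the long genes and 8.64% of all genes. It was found at 11.6% of the long genes called in both libraries, 1.28% of those with Msl1 alone, 5.88% with Nsl1 alone and 1.75% with neither. Of the sequences printed above, that of Vps13b holds it, and those of Rims2, Atg7 and Fam172a, also called in both libraries, do not. The Nrf1 motif was present at 2.15% of the long genes (3.77% with both, 1.60% with Msl1 alone, 1.96% with Nsl1 alone and 0.877% with neither) and 2.79% of all genes. CCAAT was found at 29.3% and 34.5%, TATAAA at 4.64% and 12.3%, and the YY1 core at 0.452% and 1.68% of long and of all genes. A match describes the letters only. The group called for Nsl1 alone has 51 genes, so each of its shares rests on few genes.

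The long genes were also described by function in 4 lists, which share some members. Each gene was scored at the start of its longest coding transcript, and a low value there need not hold for other starts of that gene. With the highest of all annotated TSSs of each gene, Msl1 was called at 690 long genes (78.1%) and Nsl1 at 417 (47.2%). Among 106 synaptic and axon guidance genes, Msl1 was called at 70 (66.0%) and Nsl1 at 32 (30.2%), beside 68.4% and 38.8% of all long genes, with median ratios of 2.79 and 1.53 beside 2.74 and 1.72 over all long genes. Rims2 (above) and Pcdh15, a protocadherin of hair cell tip links, led the list for Msl1, the latter with 40 Msl1 reads at 6.62 times and 14 Nsl1 reads at 1.74 times. At its other end stood Nrxn3, a presynaptic neurexin, with 3 Msl1 reads at 0.498 times (0.102 to 1.46) and 7 Nsl1 reads at 0.722 times, and Cntnap5a with 2 Msl1 reads at 0.347 times and 14 Nsl1 reads at 1.72 times. The list ran from 0.347 to 8.07 for Msl1, nearly the whole range of the long genes, and from 0.522 to 5.15 for Nsl1.

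Among 22 genes of common fragile sites, Msl1 was called at 17 (77.3%) and Nsl1 at 11 (50%), beside 68.4% and 38.8% over all long genes, and all 11 were called for Msl1 too. Fam190a held 41 Msl1 reads at 6.82 times and 11 Nsl1 reads at 1.21 times. Wwox, a gene for a WW domain oxidoreductase, held 34 Msl1 reads at 4.98 times and 52 Nsl1 reads at 4.51 times. The lowest of the list were Foxp1 (13 Msl1 reads at 1.45 times, 18 Nsl1 reads at 1.44 times) and the phosphodiesterase gene Pde4d (6 reads at 0.951 times, 10 reads at 1.16 times).

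Among 59 transcription factor and chromatin genes, Msl1 was called at 33 (55.9%) and Nsl1 at 10 (16.9%), beside the same 68.4% and 38.8%. This was the lowest Nsl1 share of the 4 lists, and 26 of the 59 genes were called for Msl1 alone, beside 313 of all 884 long genes. The mineralocorticoid receptor gene Nr3c2 held 46 Msl1 reads at 7.04 times and 15 Nsl1 reads at 1.65 times. Foxp2 held 31 Msl1 reads at 6.53 times and 14 Nsl1 reads at 2.04 times. Foxn3, with 6 Msl1 reads at 0.687 times and 10 Nsl1 reads at 0.872 times, was among the lowest.

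Among 74 cell maintenance and trafficking genes, Msl1 was called at 57 (77.0%) and Nsl1 at 46 (62.2%), with 39 of the 74 called in both libraries. All long genes had 68.4% for Msl1, 38.8% for Nsl1 and 292 of 884 called in both. The median Nsl1 ratio was 2.27. Vps13b led this list for Msl1, followed by the receptor phosphatase Ptprg with 54 Msl1 reads at 6.59 times and 19 Nsl1 reads at 1.59 times. Pik3c2g, a class II phosphoinositide kinase, held 5 Msl1 reads at 0.808 times and 14 Nsl1 reads at 1.55 times, and was among the lowest. Lists with more Nsl1 calls were not compared by a test, since their genes were chosen with earlier results of these data known.

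The second comparison followed the reads along the gene. Each 10 kb step after the TSS was divided by the rest of the gene, from 100 kb to its end, with the first 500 bases left out of the first step. Over the long genes the first step held 89083 Msl1 reads (10.6 per kb), 1.45 times the rest (1.44 to 1.46), and 95645 Nsl1 reads, 1.14 times (1.13 to 1.15). It exceeded the rest in 733 of 883 genes for Msl1 and in 618 for Nsl1, with medians of 1.34 and 1.09. In the second step, from 10 to 20 kb, the sums stood at 1.15 for Msl1 and 1.05 for Nsl1 and in the tenth, from 90 to 100 kb, at 1.09 and 1.03. The medians over genes were 1.05 and 1.01 in the second step and 1.01 and 0.998 in the tenth, so the second step lay closer to the rest than the first in both libraries. More than 10 kb upstream of the TSS, the medians ran from 0.953 to 0.963 for Msl1 and from 0.980 to 1.01 for Nsl1, while the sums ran from 1.05 to 1.09 and from 1.02 to 1.04. The step directly upstream of the TSS stood at 1.18 for Msl1 (median 1.09) and 1.12 for Nsl1 (median 1.07), so the Nsl1 excess was nearly as large before the TSS as after it. Farther upstream the Msl1 sums came up to that of the tenth step.

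The excess was steepest close to the TSS. By single kb counted from the TSS, with the first 500 bases included, Msl1 stood at 3.52 times the rest in the first, 2.03 in the second, 1.52 in the third and 1.33 in the fourth, and Nsl1 at 1.87, 1.25 and 1.16 in the first 3. Counted only from 2 kb on, the first step was 1.26 times the rest for Msl1 and 1.10 for Nsl1. Msl1 over Nsl1 in the first step was 1.27 (1.26 to 1.28) without and 1.26 (1.25 to 1.27) with the GC adjustment, above 1 in 671 of 877 genes. In the second step it was 1.09. The first step thus leaned toward Msl1 on either scale.

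**Figure D4:**
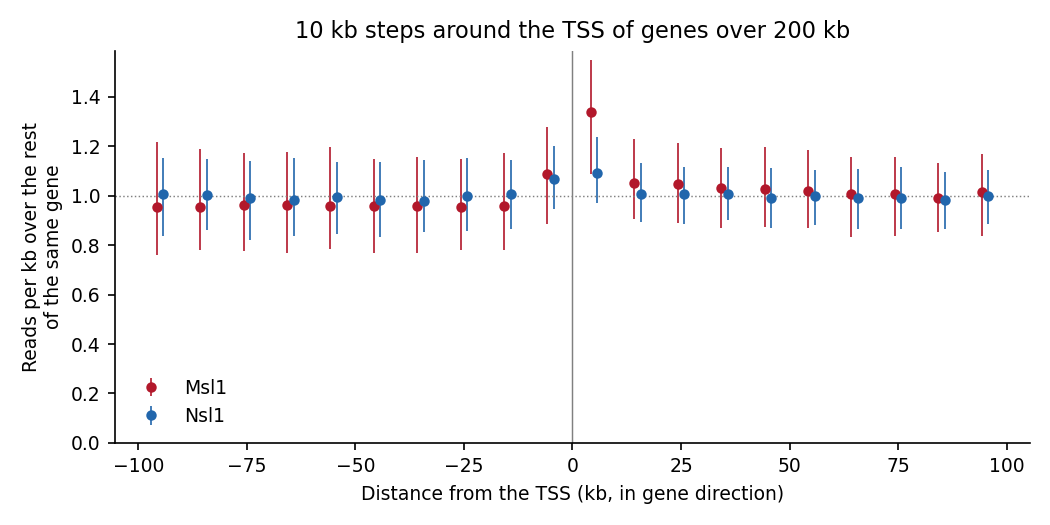
Reads per kb in 10 kb steps around the TSS divided by the rest of the same gene (100 kb to the end), as medians over the long genes with bars from the lower to the upper quartile. The Msl1 median is 1.34 in the first step after the TSS and 1.05 in the second, and the Nsl1 median is 1.09 and 1.01.

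The first step moved with the TSS call. For Msl1 reads its median was 1.43 in genes called for Msl1 alone, 1.38 in genes called in both, 1.21 in genes called for Nsl1 alone and 1.15 in genes called in neither. For Nsl1 reads the same groups had 1.10, 1.11, 1.10 and 1.06. In the second kb after the TSS the Msl1 medians were 2.11, 1.70, 1.41 and 1.34. The call did not count this kb, but Msl1 still stood at 1.87 times the local level there, on the flank of the peak that made the groups. The first step also shares bases with the local level used in the call. The order of the groups in Msl1 reads is therefore not independent of the call. The order did not hold in every window: in the fifth kb the Msl1 medians were 1.14 with Msl1 alone, 1.19 with both, 1.20 with Nsl1 alone and 1.03 with neither. By length, the median first step for Msl1 was 1.31, 1.36, 1.29 and 1.41 from genes of 200 to 300 kb to those over 1000 kb, and for Nsl1 1.06, 1.11, 1.15 and 1.18.

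**Figure D5:**
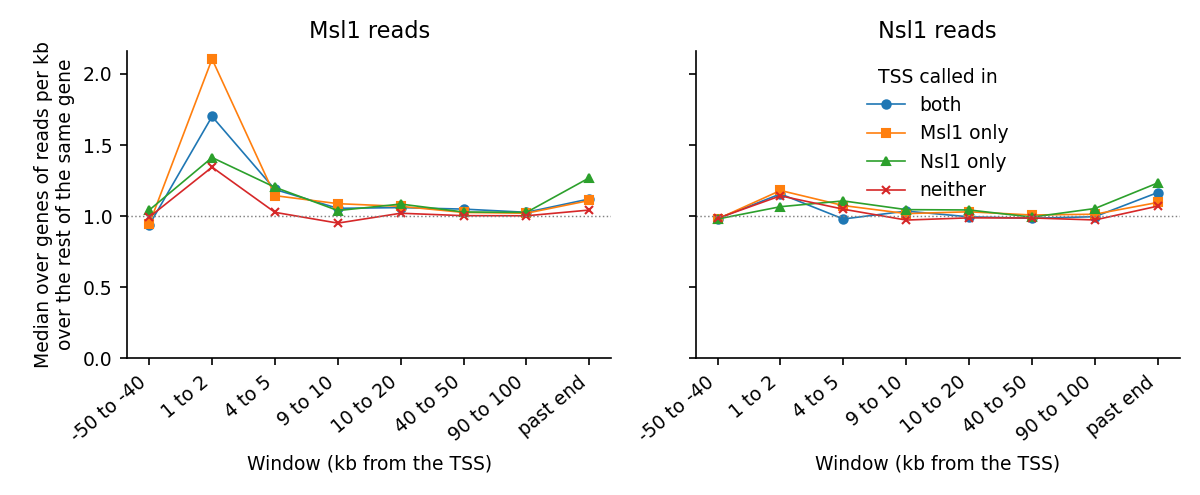
Median over genes of reads per kb divided by the rest of the same gene, in 7 windows given in kb from the TSS and in the 1 kb past the gene end, for long genes called at the TSS in both libraries (292), in Msl1 only (313), in Nsl1 only (51) and in neither (228). Between 1 and 2 kb the groups separate for Msl1 reads (left), from 1.34 to 2.11, and lie between 1.07 and 1.18 for Nsl1 reads (right). The groups were made from TSS reads of the same libraries.

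A gene was called for its first step when the step held at least 30 reads and at least 1.5 times the rest of that gene. This was met by 269 long genes for Msl1 (30.4%) and 37 for Nsl1 (4.19%), and 29 genes met it in both. With the rest taken from 50 kb on, as shorter genes require, the counts were 263 (29.8%) and 34 (3.85%), beside a background of 25% and 3.09% in the 1326 genes of 100 to 200 kb. The long genes were little above that background. By list, the Msl1 first step was called in 35 of 106 synaptic, 7 of 22 fragile site, 22 of 59 transcription factor and 30 of 74 maintenance genes, and the Nsl1 first step in 5, 3, 1 and 1.

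Several of the largest first steps belonged to genes with missing sequence. In 9 long genes more than 10% of the rest of the gene is N in mm9, and 19 in all have such a rest or fewer than 2 reads per kb in it. Sim2, a transcription factor of midline development, reached 45.0 times for Msl1 (135 reads) and 26.9 times for Nsl1, and 97.0% of its rest is N. Rasgrf2 (6.64 times for Msl1 and 6.78 for Nsl1) has 84.2% N, BB287469 (6.01 for Nsl1) 24.8% and Fam163a (2.49 for Nsl1) 61.8%. The rest of BB287469 held 0.718 Msl1 and 0.911 Nsl1 reads per kb, few also for its readable part. The remaining leaders for Msl1 have a readable rest: Fgfr2, a receptor tyrosine kinase for fibroblast growth factors, held 356 Msl1 reads in the step at 3.66 times (3.28 to 4.06), and Sox6 held 214 at 3.49 times (3.02 to 4.01). Their Nsl1 steps were 1.20 and 1.38 times the rest. Counted from 2 kb on, the Msl1 step held 220 reads at 2.68 times for Fgfr2 and 185 reads at 3.58 times for Sox6. The Sox6 excess thus lay mostly beyond 2 kb rather than close to the TSS. The second Msl1 step stood at 2.44 times the rest for Fgfr2 and 0.790 times for Sox6. The Fgfr2 values follow the start of its longest annotated coding transcript, 3009.1 kb long. They need not hold for other starts of that gene, which are not given here. Among genes with a readable rest, a choice made after values were seen, the next for Msl1 were the agouti gene a at 3.19, Abcc4 at 3.09 and Ptprg at 2.71, and the highest for Nsl1 were Rsrc1 at 2.49, Dync2h1 at 2.08 and Itgbl1 at 2.02.

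Past the end of the gene, both libraries stood slightly above the rest of the gene. The 1 kb after the annotated end held 8069 Msl1 reads, 1.24 times the rest of the gene (1.22 to 1.27), and Nsl1 stood at 1.19 (1.17 to 1.22). The medians over genes were 1.10 and 1.12, and 516 and 534 of 883 genes lay above 1. The last 50 kb inside the gene stood at 1.12 and 1.09. Over the 642 genes with no other gene within 10 kb of their end, the sums were 1.21 and 1.18.

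In the interior of the long genes, levels moved with base composition and lay near the genome's own. The rest of the gene held a median of 7.54 Msl1 and 10.3 Nsl1 reads per kb, 0.952 and 1.02 times the autosomal level. Over 865 genes with a readable rest its level had a rank correlation with GC content of 0.690 for Msl1 and 0.866 for Nsl1, and of 0.870 between the libraries. The Msl1 library had more reads per kb inside the gene than upstream in 528 of 884 genes and the Nsl1 library in 473.

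Single 1 kb windows inside the genes stood out from this floor. Of 364342 windows more than 2 kb past the TSS, 151 held at least 20 Msl1 reads and at least 4 times the rest of their gene (0.0414%), in 86 genes, and 115 did so for Nsl1 (0.0316%), in 66 genes. For Msl1, 45 lay within 1 kb of another TSS of the same gene, 46 at a TSS of a different gene and 60 at no annotated TSS. For Nsl1 the counts were 8, 30 and 77. In genes with a readable rest, 142 Msl1 windows remained, 51 of them at no annotated TSS, and 93 Nsl1 windows, 55 of them at none. Windows within 1 kb of an annotated TSS made up 60.3% of the Msl1 windows, 33.0% of the Nsl1 windows and 2.69% of all windows, and 18 windows were shared by both libraries. Gm20388, the longest gene by annotation at 4434.9 kb, runs across many other genes, and without it 131 and 102 windows remained.

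The highest windows at TSSs belonged to genes nested in or overlapping the long ones. In the calcium channel gene Cacna1d, a window 11 kb past the TSS held 330 Nsl1 reads (26.7 times the rest) and 44 Msl1 reads (4.80 times), at the TSS of the decapping enzyme gene Dcp1a, whereas the TSS of Cacna1d itself held 17 Nsl1 and 9 Msl1 reads. In Gm20388 a window at the TSS of the ribosomal protein gene Rpl13 held 135 Msl1 reads (10.5 times) and 13 Nsl1 reads, and one at the TSS of Acsf3 held 232 Nsl1 reads (15.4 times) and 19 Msl1 reads. The agouti gene a held 69 Msl1 and 11 Nsl1 reads in a window at the TSS of Eif2s2, an initiation factor subunit, 100 kb inside. Internal promoters of the gene itself, chosen after their values were seen, appeared for Msl1 in Schip1 (76 Msl1 and 29 Nsl1 reads at 428 kb) and in Auts2 (64 and 14 reads at 1003 kb).

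Some of the highest windows lay at no annotated TSS. In Chl1, an adhesion molecule of neurons, a window 138 kb past the TSS (chr6:103598870-103599869) held 113 Msl1 and 171 Nsl1 distinct reads, 18.2 times the rest in both libraries. Before duplicates were removed it held 935 and 742 reads. In Mdga2, a modulator of synapse formation, a window 163 kb past the TSS (chr12:68159530-68160529) held 32 Msl1 and 204 Nsl1 reads, 5.43 and 24.7 times the rest, and 55 and 546 before removal. The parts of these windows richest in Nsl1 reads are printed because they show direct repeats, with the most frequent 10-base word in capitals. They lie at chr6:103598975-103599224, plus strand, for Chl1, and chr12:68160280-68160529, minus strand, for Mdga2.
Chl1: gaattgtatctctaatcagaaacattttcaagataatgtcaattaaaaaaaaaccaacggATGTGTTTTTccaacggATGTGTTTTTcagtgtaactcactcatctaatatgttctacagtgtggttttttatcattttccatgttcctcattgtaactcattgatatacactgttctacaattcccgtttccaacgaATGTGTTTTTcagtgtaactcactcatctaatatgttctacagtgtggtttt
Mdga2: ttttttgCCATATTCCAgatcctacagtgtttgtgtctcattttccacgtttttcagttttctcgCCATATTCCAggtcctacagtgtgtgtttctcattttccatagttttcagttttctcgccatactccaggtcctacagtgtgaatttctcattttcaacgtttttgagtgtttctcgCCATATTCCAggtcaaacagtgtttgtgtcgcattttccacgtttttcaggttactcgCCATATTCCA
The capital word occurs 3 times in the Chl1 stretch and 4 times in the Mdga2 stretch. Within 1 run of 200 bases, 82.5% of the Mdga2 window's bases matched those 117 bases away, and 54.0% of the Chl1 window's those 120 bases away. Such a match of at least 70% at an offset of 20 to 200 bases was found in 9 of 115 Nsl1 windows (7.83%) and 1 of 151 Msl1 windows (0.662%). It was found in 2.26% of 18218 windows sampled along the long genes. The Chl1 window did not reach this limit, so these counts can leave out windows that hold direct repeats. Whether reads of other copies of such repeats were placed there was not tested.

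Windows without such a repeat were also seen at no annotated TSS. One in Atxn1, 195 kb past the TSS, held 125 Nsl1 reads (10.3 times) and 9 Msl1 reads (1.03 times), and one in Nfib, 101 kb past the TSS, held 75 Msl1 reads (7.21 times) and 14 Nsl1 reads (1.27 times). In Nlgn1, a postsynaptic adhesion molecule, a stretch of 37 kb from 579 to 616 kb past the TSS held 14 called Nsl1 windows, 13 of them at no annotated TSS, and was raised in both libraries, at 3.12 times the rest for Msl1 and 3.73 times for Nsl1. These 3 genes were chosen after their values were seen. The high windows of Sim2, BB287469 and Gm10406 rest on a rest of the gene with few reads or much N.

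The TSS ratios of the 3 longest genes were not resolved from one another, since their intervals overlap in both libraries. Gm20388 held 44 Msl1 reads at the TSS, 2.68 times the local level (1.94 to 3.62), and 29 Nsl1 reads at 2.24 times (1.49 to 3.23). Fgfr2, annotated over 3009.1 kb, held 56 Msl1 reads at 3.27 times (2.46 to 4.27) and 19 Nsl1 reads at 1.40 times (0.841 to 2.20). Cntnap2, a neurexin-like adhesion molecule annotated over 2241.3 kb, held 17 reads in each library, 3.60 times the local level for Msl1 (2.08 to 5.83) and 2.23 times for Nsl1 (1.29 to 3.59). All 3 passed the TSS call for Msl1, and Fgfr2 alone of them missed it for Nsl1.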

How the data were processed

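Wild type mESC ChIP-seq libraries for Msl1 and Nsl1 were analysed, 1 per antibody. Per the submitters' processing notes the authors used CASAVA 1.8.2 and Bowtie 0.12.7 and aligned to mm9, with uniquely aligned reads kept per the study's methods. They deposited each aligned read as a position with a strand and a score of 255 on every line, which was not used. Read positions were counted from these deposited files. Input reads were not used here. No per-sample column was left over (0).

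Duplicates at the same position and strand were reduced to 1 read, and reads were moved to the fragment centre by 106 (Msl1) or 66 (Nsl1) bases, taken from strand cross-correlation fragment lengths of 213 and 133 bases. Unequal duplicate shares (18.3% and 4.56%), read lengths and depth can shift ratios between the libraries, so most ratios compare windows within 1 library. Genes and TSSs came from GENCODE vM1 on mm9, another release than the study's, with the start of the longest protein-coding transcript as the TSS. TSS sequences were read from the same genome. Ratios carry exact Poisson or conditional binomial intervals at 95%, and the summed Msl1 over Nsl1 ratios relative to the rest of the gene carry log-scale Poisson approximations, all covering counting error only. PCR reads are not independent molecules. The GC adjustment divides by the level of 100-base tiles of equal GC content lying at least 10 kb from TSSs. Above 63% GC such tiles were too few, and the level at 63% was used. TSS GC content had an upper quartile of 66.3% in the long genes, so the adjustment of part of the TSSs rests on that fixed level.

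The genes and lists were chosen with earlier results of these data known. Named genes were the 5 highest TSS ratios per library (at least 20 reads), the 3 at each end of Msl1 over Nsl1 (at least 50 reads), the 4 largest first steps per library (at least 50 reads), the 3 longest, the 2 highest and 2 lowest Msl1 ratios of each list, and the 4 highest inner windows per library (at least 20 reads). One gene that this rule names is not reported here. Counting was tested on simulated data. Python 3.11.15, numpy 2.4.6, pandas 2.3.3, scipy 1.17.1 and matplotlib 3.10.9 were used. Alternatives changed the duplicates, read position, windows, reference level, thresholds, GC content and the genes taken.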

Additional observations from a re-analysis of the deposited data

Results flagged for a closer look

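Genes over 200 kb on the X chromosome lie outside the autosomal comparison. Of 44 such genes, 19 had a called TSS for Msl1 (43.2%), against 34% of all X-linked protein-coding genes, and 23 for Nsl1 (52.3%), against 40.5%. Median ratios were 2.02 for Msl1 and 2.17 for Nsl1, and the highest were Cnksr2 for Msl1 (18 reads, 5.28 times the local level) and Enox2 for Nsl1 (31 reads, 7.82 times). The autosomal long genes had 68.4% and 38.8%, so the order of the call shares was the reverse on the X. The study's methods describe the cells as male. At Cnksr2, 18 reads already made 5.28 times the local level, so the minimum of 10 reads can ask for a ratio above 2 on the X. Call shares of the X and the autosomes are therefore not directly comparable. The median ratios, which use no minimum, were 2.74 and 1.72 for the autosomal long genes. The difference was not tested, and there is no second library of either antibody.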

How the results depend on the processing

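No paired analysis was possible because each antibody has 1 library and no fit was made. The first step and gene end ratios stayed above 1 under the alternatives run for them. Against all genes, the Msl1 TSS share stayed higher, and the Nsl1 share stayed lower except with the highest of all TSSs of a gene (47.2% against 43.7%). The Msl1 TSS call (605 genes) became 393 at a ratio of at least 3, and the Nsl1 call (343) became 137 there and 121 with a window of 2 kb. Over the 482 genes above 300 kb, a choice made after seeing the data, the calls were 329 and 188. With Nsl1 reads thinned to the Msl1 number, also added, 346 TSSs were called. The Msl1 first step (1.446) became 1.409 without other TSSs and exons, 1.381 with the GC adjustment, 1.262 from 2 kb on, 1.288 against the last 50 kb, 1.418 in genes over 300 kb and 1.338 as a median, the last added after seeing the data. The Nsl1 first step (1.14) became 1.096 with the GC adjustment, 1.101 from 2 kb on, 1.045 against the last 50 kb, 1.15 in genes over 300 kb and 1.093 as a median. First step calls (269 and 37) fell to 46 and 7 at a fold of 2, for Msl1 to 110 from 2 kb on, and for Nsl1 to 19 with the GC adjustment, which was added. Past the gene end, Msl1 (1.244) became 1.18 with the GC adjustment, 1.193 over 5 kb, 1.108 against the last 50 kb, 1.209 with no other gene near the end and 1.101 as a median, and Nsl1 (1.193) became 1.13, 1.155, 1.093 and 1.118 under the same changes except that of the neighbours. The cause was not tested, apart from the smaller number of genes above 300 kb and the stricter limits. The reference marks no repeats in lower case, so only N could be left out and the repeat part of that alternative was not run. With medians of 21 and 18 reads, single TSSs near a ratio of 2 are not resolved, and 1 library per antibody leaves the spread between cultures unknown.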
